A study of Mus musculus with 12 samples.

Results

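GABA-A receptors are the chloride channels through which GABA, the main inhibitory transmitter of the brain, acts within milliseconds. Each channel is a ring of subunits, usually alpha and beta subunits with a gamma or a delta subunit, and the alpha and delta subunits set whether a receptor sits at synapses or outside them. In the hippocampus, alpha-5 receptors are abundant outside the synapses of pyramidal cells, and alpha-4 with delta forms the neurosteroid-sensitive receptors of dentate granule cells, a pairing that also occurs in thalamic relay neurons.

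The genes described are 7 subunit genes chosen by name: the alpha subunits Gabra2, Gabra3, Gabra4 and Gabra5, the beta subunits Gabrb1 and Gabrb2, and the delta subunit Gabrd, out of 27978 genes measured. All 7 were among the 12559 genes that were tested, those averaging 1 FPKM or more (a count of fragments divided by the length of the transcript in kilobases and by the fragments mapped in the library, in M). Levels come from RNA-seq of total RNA from mouse hippocampal tissue in 12 libraries, 4 in each of 3 groups. All 3 groups had received fecal microbiota transplantation (FMT). They are FMT-SP, which the series also calls FMT-DSS+SP and in which SP is the neuropeptide substance P, FMT-DSS and FMT-CON. The labels used here do not say what CON and DSS stand for, what the donors were, when or to which animals substance P was given, or the strain, age or sex of the mice, and no mice without a transplant are included. Nor do they say that each library is a separate animal, so the p-values below measure the spread between these libraries, which may be technical. Going by the group names, the questions are how FMT-DSS differs from FMT-CON, and how FMT-SP differs from FMT-DSS.

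Estimated depth ran from 31.5 to 37.2 M mapped fragments, so a transcript of 2000 bases at 1 FPKM rested on 63.1 to 74.4 fragments. Hippocampal markers were present throughout: the 7 CA1 markers, the 5 CA3 markers and the 8 dentate granule markers were all tested and none was at 0 in any library. Several libraries stood apart. The 7 thalamus markers summed to 18.7 to 146 FPKM in FMT-SP, 30.4 to 47.9 FPKM in FMT-DSS and 24.7 to 268 FPKM in FMT-CON, with the highest sums in FMT-CON 1 and FMT-SP 3. The hypothalamus and pituitary markers summed to 3581 FPKM in FMT-CON 3 and to at most 24.8 FPKM elsewhere. Striatum markers were highest in FMT-DSS 3, at 418 FPKM against at most 209 FPKM elsewhere, and choroid plexus markers ranged from 53.9 to 4190 FPKM. Tcf7l2, the transcription factor gene that marks thalamic neurons, was at 7.40 FPKM in FMT-SP 3 and 17.7 FPKM in FMT-CON 1. The 3 libraries numbered 4 took 24.0% to 29.0% of their summed FPKM from genes encoded in mitochondria, and the other 9 took 15.9% to 20.3%.

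The 7 genes lie on 5 chromosomes, and 3 of them are neighbours. In GRCm38 coordinates, Gabra2 spans chr5:70957597-71095849 on the minus strand, Gabra4 spans chr5:71569749-71658308 on the minus strand, and Gabrb1 spans chr5:71658113-72149037 on the plus strand. Gabra4 and Gabrb1 therefore run away from each other from starts so close that the annotated genes overlap by 196 bases, of which 46 are exon bases of both. Gabra3 is at chrX:72432681-72656848 on the minus strand, Gabra5 at chr7:57407672-57510059 on the minus strand, Gabrb2 at chr11:42419757-42629028 on the plus strand and Gabrd at chr4:155384980-155398112 on the minus strand. Gabra5 shares 148 exon bases with the antisense gene Gm9962. The sources used here do not say whether counting used strand, so reads in the shared bases cannot be assigned to either gene.

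The promoter windows of the 3 neighbouring genes are shown because the starts of Gabra4 and Gabrb1 lie close together. Each of these 2 genes starts inside the other. Their windows therefore lie on the outer sides of the stretch between the starts and do not overlap. The correlation of their levels, given further on, was 0.56 over the 12 libraries and -0.11 without the libraries numbered 4. The windows are from RefSeq on GRCm38.p6 and run from 250 bases before the start to 50 bases after it, 5′ to 3′ on the gene's own strand. Capitals mark a GC box (GGGCGG) or a CCAAT box (CCAAT) on either strand, so that CCGCCC and ATTGG are the same motifs read from the other strand.
Gabra2 promoter, chr5:71095800-71096099, minus strand: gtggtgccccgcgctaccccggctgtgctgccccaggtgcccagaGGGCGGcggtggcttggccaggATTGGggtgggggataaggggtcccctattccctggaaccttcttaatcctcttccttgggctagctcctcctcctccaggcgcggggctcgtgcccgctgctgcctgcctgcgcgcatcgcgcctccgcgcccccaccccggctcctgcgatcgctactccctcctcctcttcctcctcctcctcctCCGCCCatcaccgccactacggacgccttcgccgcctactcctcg
Gabra4 promoter, chr5:71658259-71658558, minus strand: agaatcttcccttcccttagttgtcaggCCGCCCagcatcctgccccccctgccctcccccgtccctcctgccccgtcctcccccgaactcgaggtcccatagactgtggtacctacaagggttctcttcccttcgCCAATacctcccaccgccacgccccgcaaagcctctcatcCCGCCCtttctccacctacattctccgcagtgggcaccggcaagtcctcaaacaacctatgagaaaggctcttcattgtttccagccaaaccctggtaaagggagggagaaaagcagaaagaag
Gabrb1 upstream promoter, chr5:71657671-71657970, plus strand: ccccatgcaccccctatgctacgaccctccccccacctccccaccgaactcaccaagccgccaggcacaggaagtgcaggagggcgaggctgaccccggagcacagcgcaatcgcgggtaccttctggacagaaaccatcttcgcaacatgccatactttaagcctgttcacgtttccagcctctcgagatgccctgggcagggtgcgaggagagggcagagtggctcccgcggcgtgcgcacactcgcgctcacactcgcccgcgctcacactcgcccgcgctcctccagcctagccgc
The RefSeq starts of Gabra4 and upstream Gabrb1 were 387 bases apart. The Gabra2 window had 2 GC boxes, 1 CCAAT box and a GC content of 70%. The Gabra4 window also had 2 GC boxes and 1 CCAAT box, at a GC content of 58.7%. The TATA box was searched as TATAAA, and the core of the cyclic AMP response element as the letters TGACGT. The Gabrb1 window had none of the 4 motifs, at a GC content of 66.0%. Over all 32851 RefSeq windows, read on both strands, a GC box was found in 35.7%, a CCAAT box in 37.4%, a TATA box in 13.6% and that core in 7.51%. RefSeq windows were matched for 6 of the 7 genes.

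Gabra5, whose protein is the alpha subunit most typical of the hippocampus, had the highest level of the 7. Over the 12 libraries it averaged 40.8 ± 7.30 FPKM (SD), followed by Gabra2 at 28.9 ± 6.26, Gabra4 at 24.0 ± 7.42, Gabrb2 at 23.0 ± 7.81, Gabra3 at 19.7 ± 2.91, Gabrd at 14.9 ± 6.29 and Gabrb1 at 11.4 ± 3.24 FPKM. Gabra5 stood above Gabra2 in 12 of 12 libraries, by 11.9 ± 6.91 FPKM. Every other neighbouring pair in that order differed by less than 1 SD of its difference, with the higher gene ahead in 7 to 10 of 12 libraries. Gabra3 varied least between libraries, with a coefficient of variation of 14.8%, and Gabrd most, with 42.2%. FPKM is scaled to transcript length, and which lengths the authors used is not stated in the sources here. The longest annotated transcript has 13737 bases for Gabrb1 and 2671 to 5852 bases for the other members.

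**Figure D1:**
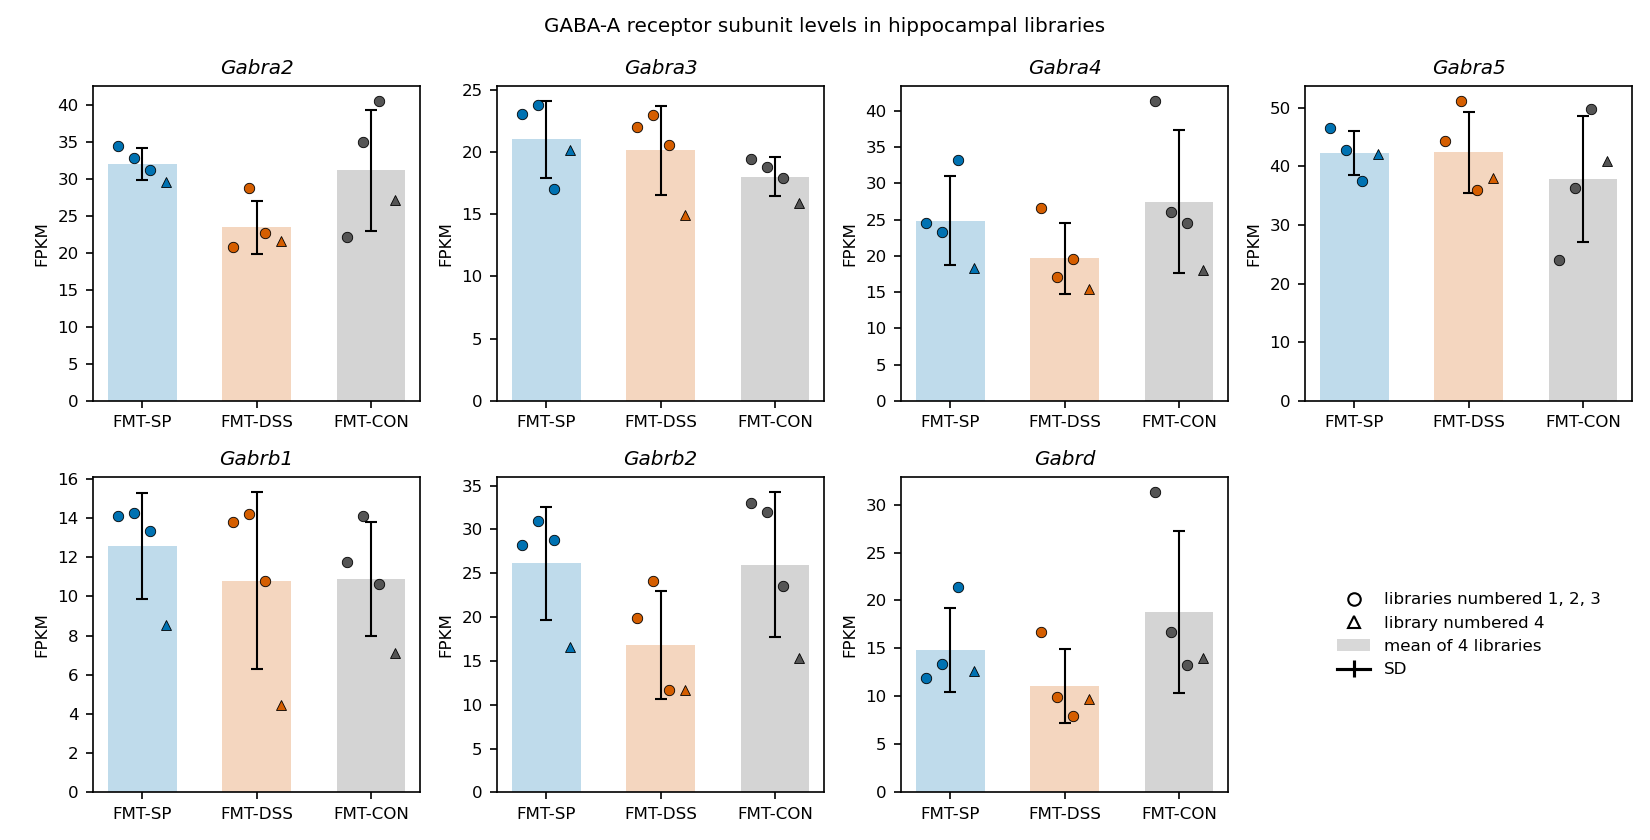
Level of each of the 7 subunit genes in FPKM (y axis, from 0) in FMT-SP, FMT-DSS and FMT-CON. Bars are means of 4 libraries, error bars SD, circles libraries numbered 1 to 3 and triangles libraries numbered 4. The FMT-SP points of Gabra2 all lie above the FMT-DSS points, the triangles of Gabrb1 are the lowest of their groups, and the highest Gabra4 and Gabrd points are FMT-CON 1.

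Among the alpha subunits, Gabra2 separated the groups most clearly. Its product is concentrated at synapses on the axon initial segment of pyramidal cells. Gabra2 was at 34.6, 32.9, 31.2 and 29.6 FPKM in FMT-SP 1 to 4, 20.9, 28.8, 22.7 and 21.7 FPKM in FMT-DSS 1 to 4, and 22.2, 35.0, 40.6 and 27.1 FPKM in FMT-CON 1 to 4. Every FMT-SP library was higher than every FMT-DSS library, while FMT-CON spread across both ranges. The means were 32.1 ± 2.14, 23.5 ± 3.60 and 31.2 ± 8.17 FPKM in FMT-SP, FMT-DSS and FMT-CON (SD, n = 4 each).

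Gabra3, a subunit best known from the reticular thalamus and monoaminergic nuclei, was at 23.1, 23.8, 17.0 and 20.1 FPKM in FMT-SP 1 to 4, 22.0, 23.0, 20.5 and 15.0 FPKM in FMT-DSS 1 to 4, and 19.5, 18.8, 17.9 and 15.9 FPKM in FMT-CON 1 to 4. The 3 groups overlapped throughout. Gabra5 was at 46.6, 42.8, 37.5 and 42.1 FPKM in FMT-SP 1 to 4, 44.4, 51.2, 35.9 and 38.1 FPKM in FMT-DSS 1 to 4, and 24.0, 36.4, 49.8 and 41.0 FPKM in FMT-CON 1 to 4. FMT-CON 1 was the lowest library of all for Gabra5, and FMT-DSS 2 and FMT-CON 3 were the highest.

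Gabra4 and Gabrd, the partners in extrasynaptic receptors, were highest in the libraries with the most thalamus marker RNA. Gabra4 was at 24.5, 23.3, 33.2 and 18.4 FPKM in FMT-SP 1 to 4, 26.6, 17.1, 19.6 and 15.5 FPKM in FMT-DSS 1 to 4, and 41.4, 26.1, 24.5 and 18.0 FPKM in FMT-CON 1 to 4. Gabrd was at 11.9, 13.4, 21.4 and 12.6 FPKM in FMT-SP 1 to 4, 16.7, 9.98, 7.96 and 9.71 FPKM in FMT-DSS 1 to 4, and 31.3, 16.7, 13.3 and 14.1 FPKM in FMT-CON 1 to 4. For both genes FMT-CON 1 was the highest library and FMT-SP 3 the next, and all group ranges overlapped.

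The beta subunits, which form the GABA binding site together with alpha, were low in the libraries numbered 4. Gabrb1 was at 14.1, 14.3, 13.3 and 8.55 FPKM in FMT-SP 1 to 4, 13.8, 14.2, 10.8 and 4.47 FPKM in FMT-DSS 1 to 4, and 11.8, 14.1, 10.6 and 7.13 FPKM in FMT-CON 1 to 4. Gabrb2 was at 28.3, 30.9, 28.8 and 16.5 FPKM in FMT-SP 1 to 4, 19.9, 24.1, 11.7 and 11.7 FPKM in FMT-DSS 1 to 4, and 33.0, 32.0, 23.6 and 15.3 FPKM in FMT-CON 1 to 4. FMT-DSS 3 was as low as FMT-DSS 4 for Gabrb2, and the group ranges of both genes overlapped.

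Summed over the 7 genes, the level was 183, 181, 182 and 148 FPKM in FMT-SP 1 to 4, 164, 168, 129 and 116 FPKM in FMT-DSS 1 to 4, and 183, 179, 180 and 138 FPKM in FMT-CON 1 to 4. The FMT-DSS sums were the lower ones, but the sums in the libraries numbered 4 of the other groups lay among them. The means were 173.7 ± 17.2, 144.5 ± 25.8 and 170.2 ± 21.2 FPKM in FMT-SP, FMT-DSS and FMT-CON (SD, n = 4 each). In tissue RNA, fewer cells of a type and less RNA per cell cannot be told apart.

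In FMT-DSS against FMT-CON, 5 of the 7 subunits had lower means of log2(FPKM + 1) in FMT-DSS and 2 had higher means, but 0 passed an adjusted p of 0.05 (limma on log2(FPKM + 1), Benjamini-Hochberg over all tested genes). Over all 12559 tested genes 0% passed that threshold and 59.7% had lower means. At an unadjusted p under 0.05 there were 2 members, both lower, against 2.81% of all tested genes that were lower at that level. The largest difference was that of Gabrd, at -0.68 ± 0.28 on the log2(FPKM + 1) scale (SE, 95% interval -1.28 to -0.08, adjusted p = 0.966 by limma). Gabrd averaged 11.1 ± 3.86 FPKM in FMT-DSS and 18.8 ± 8.42 FPKM in FMT-CON (SD, n = 4 each), and exact permutation of the 8 libraries, with 70 assignments, gave a two-sided p of 0.114, where the smallest possible is 0.0286. Without FMT-CON 1, the Gabrd difference was -0.42. Several marker lists moved with this comparison in mean log2(FPKM + 1), with no marker past the adjusted threshold. Lower in FMT-DSS were all 7 thalamus, all 8 dentate granule, all 7 microglia and all 5 tested hypothalamus and pituitary markers, with median differences of -0.71, -0.27, -0.57 and -1.58. Higher in FMT-DSS were all 7 CA1, all 9 choroid plexus and all 5 erythrocyte markers, with median differences of 0.35, 0.39 and 1.07. The microglia means were 2.60 and 2.51 in FMT-DSS 2 and FMT-DSS 4. In FMT-DSS 1 and FMT-DSS 3 they were 3.70 and 3.72, within the FMT-CON range of 3.43 to 3.88. The thalamus mean was 4.90 in FMT-CON 1 and 1.91 to 3.05 in the other FMT-CON libraries, beside 1.99 to 2.65 in FMT-DSS. A fit with the thalamus marker mean as covariate, added after the data were seen, also gave 0 members past the adjusted threshold. Beyond that fit, the part of these lists in the subunit results was not tested.

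Gabra2 differed by -0.37 ± 0.16 on the log2(FPKM + 1) scale between FMT-DSS and FMT-CON (SE, 95% interval -0.72 to -0.02, adjusted p = 0.966 by limma), with an exact permutation p of 0.171. The estimate was -0.23 without FMT-CON 3, the library with the highest Gabra2 level and the pituitary marker RNA, and -0.52 without FMT-CON 1. Gabrb2 differed by -0.60 ± 0.29 (95% interval -1.23 to 0.02) and Gabra4 by -0.43 ± 0.24 (95% interval -0.95 to 0.09), with an estimate of -0.22 for Gabra4 without FMT-CON 1. Gabra3, Gabra5 and Gabrb1 differed by 0.14 ± 0.14, 0.19 ± 0.18 and -0.08 ± 0.30, with 95% intervals of -0.16 to 0.44, -0.21 to 0.59 and -0.74 to 0.57. The median difference of the 7 members was -0.37, beside -0.03 over all tested genes. Of the 5 other GABA-A family genes tested, 2 had higher means in FMT-DSS and 3 lower means, with a median of -0.001.

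In FMT-SP against FMT-DSS, the means of log2(FPKM + 1) of 7 of 7 subunits were higher in FMT-SP, against 58.9% of all tested genes, and 0 passed the adjusted threshold, as did 0% of all genes. At an unadjusted p under 0.05 there were 2 members, both higher, against 1.27% of all tested genes that were higher at that level. Gabra2 was higher by 0.44 ± 0.16 on the log2(FPKM + 1) scale (SE, 95% interval 0.09 to 0.79, adjusted p = 0.999 by limma). Its 4 FMT-SP libraries lay above its 4 FMT-DSS libraries, which gave the smallest possible exact permutation p of 0.0286. Such non-overlap with higher levels in FMT-SP was found in 0.565% of all tested genes and in 1 of the 7 members. Several marker lists moved to 1 side here too, with no marker past the adjusted threshold. All 8 pan-neuronal, 7 microglia, 5 CA3 and 5 endothelial markers had higher means in FMT-SP, with median differences of 0.12, 0.57, 0.06 and 0.06. All 10 striatum, 9 choroid plexus, 7 oligodendrocyte and 5 erythrocyte markers had lower means, with medians of -0.68, -0.61, -0.12 and -0.57. What part these shifts had in the subunit levels was not tested.

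Gabrb2 had a mean of 26.1 ± 6.49 FPKM in FMT-SP and 16.8 ± 6.18 FPKM in FMT-DSS (SD, n = 4 each). The difference was 0.63 ± 0.29 (SE, 95% interval 0.01 to 1.26, adjusted p = 0.999 by limma, exact permutation p = 0.143). Gabrd, Gabra4 and Gabrb1 differed by 0.40 ± 0.28, 0.32 ± 0.24 and 0.28 ± 0.30. Leaving out FMT-SP 3 brought the estimate to 0.22 for Gabrd and 0.18 for Gabra4, and leaving out FMT-DSS 4 brought it to -0.05 for Gabrb1. Gabra3 at 0.06 ± 0.14 and Gabra5 at 0.01 ± 0.18 had the smallest differences, with 95% intervals of -0.24 to 0.37 and -0.40 to 0.41. In FPKM, Gabra5 averaged 42.3 ± 3.77 in FMT-SP and 42.4 ± 6.87 in FMT-DSS (SD, n = 4 each), so its sign depends on the scale. The median over the 7 members was 0.32, beside 0.03 over all tested genes. Of the 5 other GABA-A family genes tested, 3 had higher means in FMT-SP and 2 lower means, with a median of 0.08. The FMT-DSS libraries enter this comparison and the preceding one, so opposite signs in the pair of comparisons are not independent of each other.

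In FMT-SP against FMT-CON, 5 subunits had higher means of log2(FPKM + 1) in FMT-SP and 2 had lower means, beside 46.7% of all tested genes that had higher means. None passed the adjusted threshold or an unadjusted p of 0.05, which 0.358% of all tested genes did, and none had groups apart, which 0.494% of genes had. The differences ran from -0.28 ± 0.28 for Gabrd to 0.20 ± 0.14 for Gabra3 (SE), and limma's adjusted p rounded to 1 for each. Gabra2 differed by 0.07 ± 0.16, with a 95% interval of -0.28 to 0.42, and Gabrb2 by 0.03 ± 0.29, with a 95% interval of -0.59 to 0.65. Gabra5 differed by 0.20 ± 0.18, Gabrb1 by 0.20 ± 0.30 and Gabra4 by -0.11 ± 0.24. The median over the 7 members was 0.07, beside -0.01 over all tested genes.

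**Figure D2:**
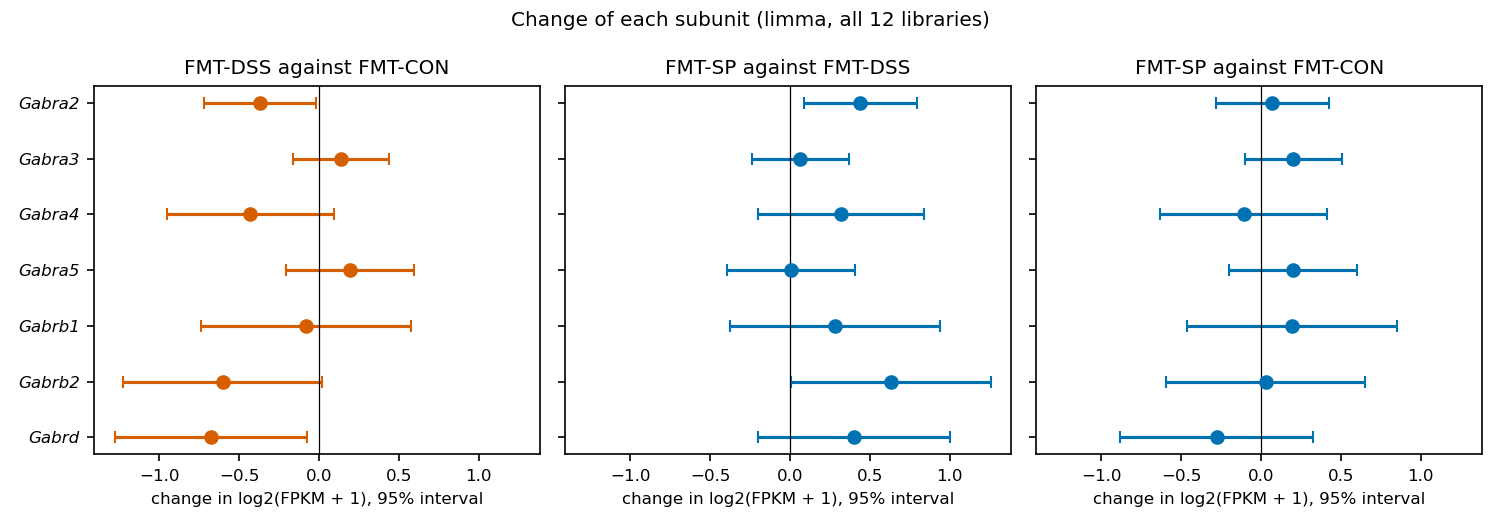
Difference in log2(FPKM + 1) of each subunit (x axis) for the 3 comparisons named over the panels, from limma on all 12 libraries. Points are estimates and bars 95% intervals without correction for multiple testing; Gabra2 and Gabrd exclude 0 in the left panel, Gabra2 and Gabrb2 in the middle panel, and no subunit does in the right panel.

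Set against each other within a library, Gabra2 and Gabra5 showed a difference between groups that neither shows so fully alone. The ratio of Gabra2 to Gabra5 was 0.741, 0.768, 0.833 and 0.703 in FMT-SP 1 to 4, 0.470, 0.563, 0.632 and 0.570 in FMT-DSS 1 to 4, and 0.925, 0.962, 0.815 and 0.662 in FMT-CON 1 to 4. Every FMT-DSS library was below every library of the other groups. Of the 21 ratios between the 7 members, it was the 1 ratio without overlap when FMT-DSS was set against FMT-CON, and again the 1 ratio without overlap when FMT-SP was set against FMT-DSS. Between FMT-SP and FMT-CON, 0 of 21 ratios were apart. When each of the other 12558 tested genes was set over Gabra5, the FMT-DSS libraries lay below all FMT-CON libraries for 0.247% of genes, the FMT-SP libraries lay above all FMT-DSS libraries for 0.0956%, and FMT-SP and FMT-CON did not overlap for 0.223%. The ratio was singled out after its values were seen, so it is a description without a test, and the FMT-DSS libraries are the same in both comparisons.

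Other ratios between members overlapped between groups. The ratio of Gabrd to Gabra4 stayed within 0.407 to 0.781 in all 12 libraries, although Gabrd itself ranged from 7.96 to 31.3 FPKM. The ratio of Gabrb1 to Gabrb2 was 0.461 to 0.517 in FMT-SP, 0.381 to 0.924 in FMT-DSS and 0.356 to 0.466 in FMT-CON, and 3 of the 4 FMT-DSS libraries were above all others.

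**Figure D3:**
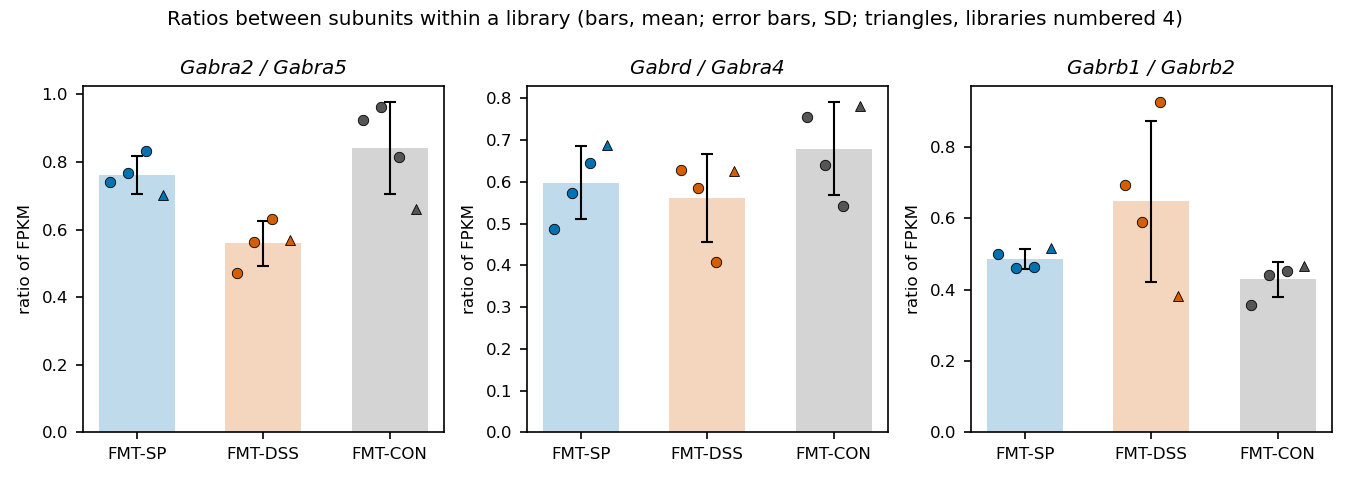
Ratios of FPKM between members within a library (y axis, from 0) in FMT-SP, FMT-DSS and FMT-CON, with bars for means of 4 libraries, error bars for SD and triangles for libraries numbered 4. For Gabra2 over Gabra5 the FMT-DSS points, 0.470 to 0.632, lie below all points of FMT-SP and FMT-CON, and in the other panels the groups overlap.

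How the members varied together was examined over the 12 libraries for the 21 pairs, with permutation tests of 100000 resamples. Of the 21 Pearson correlations of log2(FPKM + 1), 16 were positive and 4 had an adjusted p under 0.05, a number that ran from 1 to 5 when each library was left out in turn, with 1 pair left without FMT-CON 4, FMT-DSS 4 or FMT-SP 1 and 2 pairs without FMT-SP 4. The highest was that of Gabra4 with Gabrd, with r = 0.88 (permutation p = 0.00014, adjusted p = 0.00294) and Spearman's rho = 0.80 (permutation p = 0.0031, adjusted p = 0.0651). Its r was 0.85 without FMT-CON 1 and FMT-DSS 3, the 2 libraries farthest from the median of Gabrd. It was 0.95 without the libraries numbered 4, and 0.66 without FMT-CON 1 and FMT-SP 3. None of the 21 rank correlations had an adjusted p under 0.05. The share of such pairs among other tested genes is not given here, so the counts do not mark the members as particular.

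The other 3 pairs involved the beta subunits. Gabrb1 and Gabrb2 had r = 0.75 (rho = 0.67, adjusted p = 0.0253 and 0.107). This r was 0.77 without FMT-DSS 3 and FMT-DSS 4, and 0.51 without the libraries numbered 4. Gabra3 and Gabrb1 had r = 0.75 (rho = 0.75, adjusted p = 0.0253 and 0.0729), which was 0.36 without FMT-CON 4 and FMT-DSS 4, so the relation rests on those libraries. Gabra4 and Gabrb2 had r = 0.73 (rho = 0.66, adjusted p = 0.0374 and 0.107). This r was 0.67 without FMT-DSS 3 and FMT-DSS 4, and 0.53 without the libraries numbered 4. All of these are permutation p-values, and before adjustment those of r ran from 0.00014 to 0.00711 over the 4 pairs.

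Gabra4 and Gabrb1, the neighbours whose promoter windows are printed above, had r = 0.56 (rho = 0.31, adjusted permutation p = 0.157 and 0.608), and r was 0.22 without FMT-CON 4 and FMT-DSS 4 and -0.11 without all 3 libraries numbered 4. Without FMT-CON 1 and FMT-SP 3, r for Gabra4 and Gabrb1 was 0.72. The neighbours with the shortest distance between starts were not among the pairs past the threshold over all libraries. Gabra5 went the other way from the Gabra4 and Gabrd pair, with r = -0.56 against Gabra4 (rho = -0.30, adjusted permutation p = 0.157 and 0.608) and r = -0.61 against Gabrd (rho = -0.29, adjusted permutation p = 0.154 and 0.608). The r of Gabra5 with Gabra4 was 0.13 without FMT-CON 1 and FMT-DSS 2. With Gabrd it was -0.46 without FMT-CON 1 and FMT-DSS 3. Without FMT-CON 1 and FMT-SP 3 these relations had r of 0.14 and 0.11, so both negative relations rest on a few libraries.

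**Figure D4:**
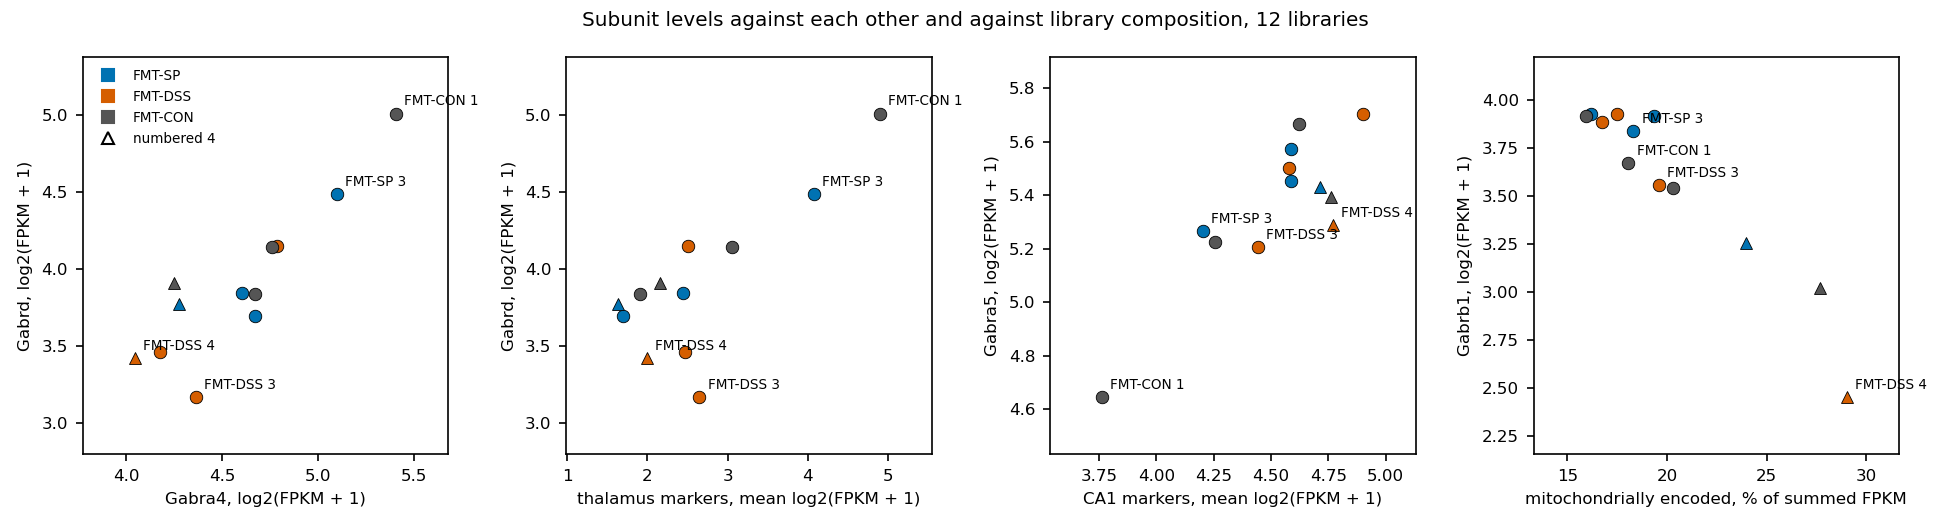
Left to right, Gabrd against Gabra4, Gabrd against the mean of the thalamus markers, Gabra5 against the mean of the CA1 markers, all in log2(FPKM + 1), and Gabrb1 in log2(FPKM + 1) against the mitochondrially encoded share in percent. Each point is 1 of 12 libraries, coloured by group, with triangles for libraries numbered 4; FMT-CON 1 and FMT-SP 3 sit at the end of the first 3 panels and the libraries numbered 4 at the end of the last.

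The correlation of each member with marker lists of hippocampal fields, other cell types and neighbouring tissue was computed for 105 pairs, of which 71 were positive and 12 had an adjusted permutation p under 0.05 for r, with unadjusted permutation p from 6e-05 to 0.00499. Leaving out FMT-DSS 1 gave 8 such pairs, leaving out FMT-DSS 3 gave 16, and it was between 2 and 5 without any other single library, and it was 1 without the libraries numbered 4. Gabra4 ran against the CA1 markers across libraries, with r = -0.89 and rho = -0.88 (adjusted permutation p = 0.00525 and 0.0336), the only pair whose rank correlation also passed, and r was -0.69 without FMT-CON 1 and FMT-SP 3. Gabra5 followed CA1 markers at r = 0.85 (rho = 0.64, adjusted permutation p = 0.0437 and 0.234), which was 0.55 without those libraries. Gabrd had r = -0.79 with CA1 markers (rho = -0.64, adjusted permutation p = 0.0437 and 0.234), and -0.32 without them. How often other tested genes pass with these lists is not given here, so the counts do not set the members apart.

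Thalamus markers showed the mirror of this pattern. Gabra4 and Gabrd had r = 0.79 and 0.78 with them (rho = 0.59 and 0.55, adjusted permutation p of r = 0.0437 each), and Gabra5 had r = -0.79 (rho = -0.62, adjusted permutation p of r = 0.0437). Without FMT-CON 1 and FMT-SP 3 the values were 0.27 for Gabra4, 0.15 for Gabrd and -0.41 for Gabra5, so the thalamus relations rest on those libraries. Gabrd with the dentate granule markers, from the hippocampal cells in which delta is best known, had r = 0.26 (rho = 0.13, adjusted permutation p = 0.623 and 0.826), and 0.11 without FMT-CON 3 and FMT-DSS 2. Oligodendrocyte markers went with Gabra4 at r = 0.75 (rho = 0.73) and against Gabra5 at r = -0.74 (rho = -0.56), each with an adjusted permutation p of r of 0.0437, and r was 0.54 and -0.69 without FMT-CON 1 and FMT-DSS 1. Without FMT-CON 1 and FMT-SP 3 these were 0.43 and -0.44. In these relations gene and markers come from the same libraries and share their scaling, and what part the tissue taken had in them was not tested.

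**Figure D5:**
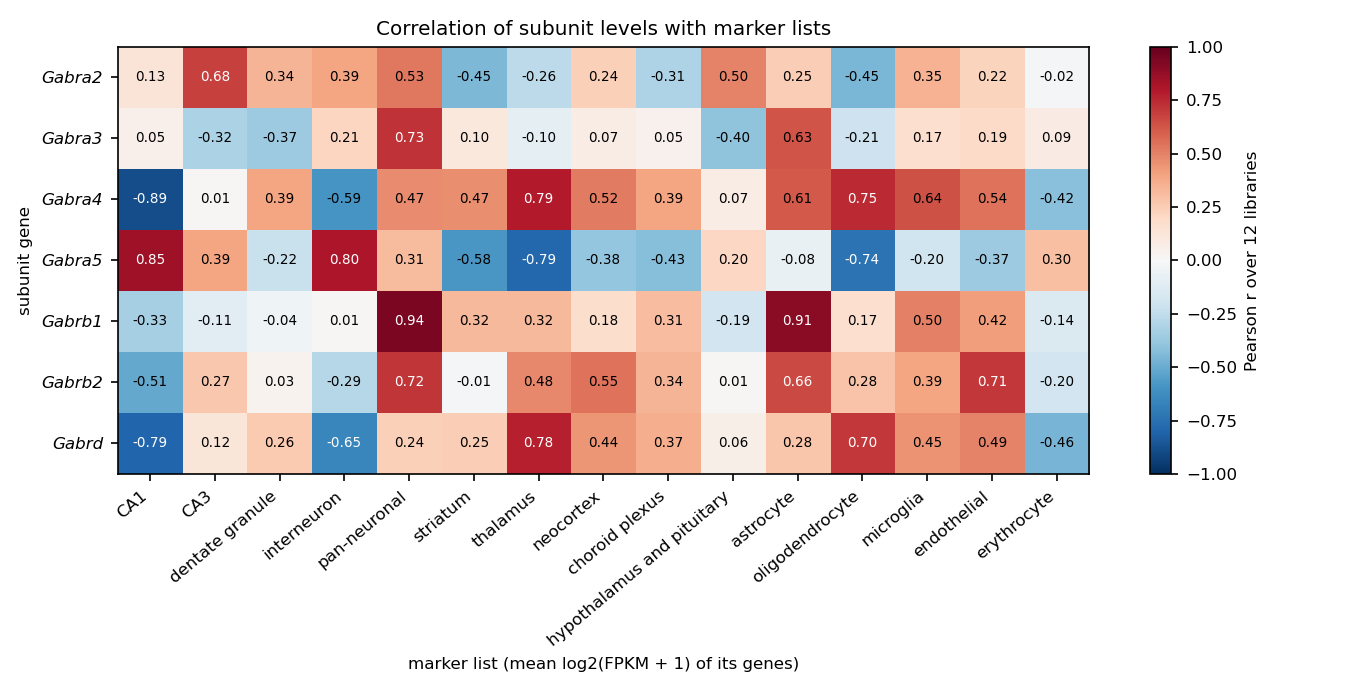
Pearson r over 12 libraries between log2(FPKM + 1) of each subunit gene (rows) and the mean log2(FPKM + 1) of each of 15 marker lists (columns), from -1 in blue to 1 in red. Gabra4 and Gabrd share a sign against the CA1 and thalamus lists, at -0.89 and -0.79 and at 0.79 and 0.78, and Gabra5 has the opposite sign at 0.85 and -0.79.

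The beta subunits and Gabra3 went with the pan-neuronal markers. Gabrb1 had r = 0.94 with them (rho = 0.80, adjusted permutation p = 0.00525 and 0.104), Gabra3 had r = 0.73 (rho = 0.68) and Gabrb2 had r = 0.72 (rho = 0.55), and for these 2 genes the adjusted permutation p of r was 0.0437. Without FMT-CON 4 and FMT-DSS 4 these values were 0.78, 0.38 and 0.52, and without all 3 libraries numbered 4 they were 0.72 for Gabrb1, 0.41 for Gabra3 and 0.40 for Gabrb2. For Gabra3 and Gabrb2 the relation thus rests on the libraries numbered 4. Gabrb1 also had r = 0.91 with astrocyte markers (rho = 0.57, adjusted permutation p = 0.0203 and 0.315), which was 0.68 without FMT-CON 4 and FMT-DSS 4 and -0.01 without all 3 libraries numbered 4.

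Gabrb1 was the 1 member whose libraries numbered 4, at 4.47 to 8.55 FPKM, all lay below the other 9, at 10.6 to 14.3 FPKM. Over all tested genes, 17.1% were lower in those 3 libraries than in the other 9 without overlap and 9.05% were higher. Gabrb1 went down with the mitochondrially encoded share at r = -0.95 (rho = -0.91, adjusted permutation p = 0.00014 and 0.0007 over 7 relations), a relation examined after the data were seen. It was -0.89 without FMT-CON 4 and FMT-DSS 4 and -0.73 within the 9 libraries not numbered 4. Gabrb2 had r = -0.73 with that share (rho = -0.73, adjusted permutation p = 0.0222 and 0.0327) and Gabra3 r = -0.71 (rho = -0.57, adjusted permutation p = 0.0222 and 0.132). Without FMT-CON 4 and FMT-DSS 4 these were -0.54 and -0.22, and before adjustment the permutation p of r of the 3 genes ran from 2e-05 to 0.00952. After rescaling without the mitochondrially encoded genes, Gabrb1 was at 4.41 to 8.39 FPKM in the libraries numbered 4 and at 10.2 to 14.7 FPKM in the other 9.

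The genes whose levels ran most like each member over the 12 libraries were taken by the highest Pearson r among the tested genes. Symbols without a gene name, such as those with Gm, Rik or LOC, were left out. For Gabrb1 these were Dnajc5, Reps2 and Fam20b, with r of 0.99 for each. For Gabra4 they were Mob3a, Il1rap and Ado, with r of 0.96, 0.95 and 0.95, and for Gabrd they were Nfe2l3, Pigz and Sptssb, with r of 0.95, 0.93 and 0.93. For Gabra3 they were Zxdc, Klf5 and Rin2 (r of 0.95, 0.92 and 0.91), and for Gabra5 they were Cdc42se2, Lmo3 and Ak5 (r of 0.94, 0.93 and 0.93). For Gabrb2 they were Eif5, Camk2d and Gabbr2, with r of 0.94, 0.92 and 0.92, of which Gabbr2 encodes a subunit of the GABA-B receptor. Gabra2 had the weakest likeness, with Arhgef6, Dnaja2 and Scnn1a at r of 0.86, 0.85 and 0.84. These values are the highest among the named genes of the 12559 tested and are given as description.

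The other genes of GABA signalling gave no call at the adjusted threshold in any comparison. Of 12 other GABA-A family genes, 5 were tested, among them Gabrg1 at 2.85 FPKM and Gabrg3 at 2.23 FPKM over the 12 libraries, gamma subunits at low levels, and 7 had means under 1 FPKM. The 3 genes of GABA synthesis and vesicle loading were Gad1 at 64.3 FPKM and Gad2 at 18.4 FPKM, which make GABA, and Slc32a1 at 16.7 FPKM, which loads it into vesicles. Gad1 averaged 65.9 ± 8.06, 64.0 ± 14.0 and 62.9 ± 13.2 FPKM in FMT-SP, FMT-DSS and FMT-CON (SD, n = 4 each), and differed by 0.02 ± 0.18 between FMT-DSS and FMT-CON (SE). Abat, the enzyme that breaks GABA down, averaged 53.7 FPKM over the 12 libraries.

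Further lists held 5 GABA-B receptor genes, 19 receptor clustering and trafficking genes, 6 chloride gradient genes and 3 tested receptor modulators. Across them, 1 gene had an unadjusted p under 0.05 by limma in any comparison. It was lower in FMT-DSS than in FMT-CON, as were 2.81% of all tested genes at that level. Gabarapl2, a relative of the GABA receptor-associated protein that works in autophagy and vesicle transport, averaged 96.8 ± 3.54 FPKM in FMT-DSS and 114.5 ± 9.89 FPKM in FMT-CON (SD, n = 4 each). It differed by -0.24 ± 0.08 on the log2(FPKM + 1) scale (SE, adjusted p = 0.966 by limma), and its groups did not overlap, as was so with lower levels in FMT-DSS for 1.23% of all tested genes. Its mean in FMT-SP was 105.5 ± 5.55 FPKM (SD, n = 4). The 5 GABA-B receptor genes all had lower means in FMT-DSS than in FMT-CON, as did 59.7% of all tested genes. Their median difference was -0.07. Gabbr1, the most abundant of them and the subunit that binds GABA, averaged 117.9 ± 12.9, 118.2 ± 20.7 and 125.7 ± 35.2 FPKM in FMT-SP, FMT-DSS and FMT-CON (SD, n = 4 each). Means were lower in FMT-DSS for 6 of 19 clustering and trafficking genes, 4 of 6 chloride gradient genes and 3 of 3 tested modulators. Dbi, whose protein binds the benzodiazepine site of GABA-A receptors, averaged 200.6 FPKM over the 12 libraries. Slc12a5, the transporter that keeps chloride low in mature neurons, averaged 64.8 ± 6.69, 64.0 ± 4.76 and 61.0 ± 5.66 FPKM in FMT-SP, FMT-DSS and FMT-CON (SD, n = 4 each), with groups that overlapped.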

How the data were processed

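The deposited file holds FPKM values per gene and library, computed by the authors from RNA-seq of total RNA, extracted with Trizol per the labels' protocols. The submitters' processing notes name HISAT2 2.0 and the build mm8 without a role; the counter, annotation and filters were not given in the sources used here. Groups and library numbers come from the sample titles. The labels give no batch.

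Values were tested as log2(FPKM + 1) over genes averaging 1 FPKM or more (12559 of 27978) by limma 3.58.1 (R 4.3.3) in 1 linear model of all 12 libraries, with trend, two-sided, Benjamini-Hochberg adjusted over all tested genes, threshold 0.05. The method was tested on simulated data. Single genes were also compared by exact permutation over 70 assignments, whose smallest p is 0.0286. Correlations used 100000 resamples (smallest p 1e-05) in Python 3.11.15 with scipy 1.17.1, adjusted within each family. For a further value, the 2 libraries farthest from the median of 1 gene of the pair, or of the marker list, were left out. Log-scale differences understate changes of low genes.

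Depth was estimated from the steps of 1 fragment in low values of 4713 single-transcript genes, where 34.3% to 37.1% of values lay within 0.05 of a whole fragment, against 10% by chance. Positions were matched by symbol to GENCODE vM21 (GRCm38) and promoter windows to RefSeq, neither of them the build named in the notes, so they serve names and positions only.

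The members, gene lists and tests were chosen with earlier results of these data known. The genes named are the 7 members, from each GABA list those with an unadjusted p under 0.05 or otherwise the 1 or 2 of highest mean, other family subunits of at least 1 FPKM, the 3 genes most like each member, and Tcf7l2 among marker genes. Some genes that this rule selects are not reported here. Alternatives were other pseudocounts, filters, rescalings, weights, a replicate block and leaving out libraries.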

Additional observations from a re-analysis of the deposited data

Results flagged for a closer look

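In FMT-SP, Gabrb1 was at 8.55 FPKM in FMT-SP 4, against 13.3 to 14.3 FPKM in the other libraries of the group. The gap to the next library was 0.837 of the range of the group, above the 95% critical value of Dixon's test for 4 values. FMT-SP 4 is among the libraries with a high mitochondrially encoded share.

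Gabrd was at 21.4 FPKM in FMT-SP 3, against 11.9 to 13.4 FPKM in the other libraries of FMT-SP, a gap of 0.848 of the range. FMT-SP 3 had the highest thalamus marker sum of that group, at 146 FPKM. With 21 sets of 4 values examined, chance alone marks about 1 in 20.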

How the results depend on the processing

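Under all 25 alternatives, 0 of the 7 members passed the adjusted threshold in each of the 3 comparisons, and no alternative gave a call over all genes. The replicate numbers were not taken as pairing the libraries, since not every number tied its libraries together: correlations of deviations from the group means ran from -0.33 to 0.36 within number 1, 0.24 to 0.53 within number 2, -0.45 to 0.11 within number 3 and 0.69 to 0.84 within number 4, against -0.75 to 0.68 between different numbers. A fit with the replicate block gave 0 members past the threshold in all 3 comparisons, with a lowest adjusted p of 0.426 by limma, for Gabrb2 in FMT-DSS against FMT-CON. Over all tested genes, limma's unadjusted p was under 0.05 for more genes with the block. In FMT-DSS against FMT-CON these were 1274 with the block and 510 without it. The numbers were 885 and 314 in FMT-SP against FMT-DSS, and 310 and 45 in FMT-SP against FMT-CON.

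The sign of small differences turned under some settings, and the cause was not tested. In FMT-DSS against FMT-CON, Gabrb1 was at 0.084 with array weights, 0.079 without the libraries numbered 4, 0.18 with FMT-DSS 2 and FMT-DSS 4 left out, and 0.019 with the thalamus marker mean as covariate, and Gabra5 was at -0.0018 without FMT-CON 1 and FMT-SP 3. Leaving out FMT-CON 1 and FMT-SP 3 together, and the covariate, were added after seeing the data. In FMT-SP against FMT-DSS, Gabra5 was at -0.022 with median-ratio rescaling and -0.041 without the libraries numbered 4, and Gabra3 at -0.048 without the libraries numbered 4 and -0.028 with FMT-DSS 2 and FMT-DSS 4 left out. In FMT-SP against FMT-CON, Gabra2 was at -0.035 with array weights and -0.064 without FMT-CON 1 and FMT-SP 3, and Gabra4 at 0.056 with the covariate. Gabrb1 with astrocyte markers was at r = -0.012 without the libraries numbered 4.

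With 1 library left out at a time, FMT-DSS against FMT-CON ran from -0.26 to 0.25 for Gabrb1 and -0.0018 to 0.34 for Gabra5. FMT-SP against FMT-DSS ran from -0.064 to 0.16 for Gabra3, -0.068 to 0.098 for Gabra5 and -0.054 to 0.44 for Gabrb1. FMT-SP against FMT-CON ran from -0.076 to 0.21 for Gabra2, -0.28 to 0.10 for Gabra4 and -0.19 to 0.23 for Gabrb2. The difference of Gabra2 in FMT-SP against FMT-DSS stayed between 0.39 and 0.54 under all 25 alternatives.

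Correlations with marker lists past the adjusted permutation threshold numbered 12, against 4 with median-ratio rescaling, 6 with rescaling without mitochondrially encoded genes, 1 without the libraries numbered 4, 4 without FMT-DSS 2 and FMT-DSS 4, 5 without FMT-CON 1 and FMT-SP 3, and 2 to 16 with each library left out. Correlations between members numbered 4, against 1 with median-ratio rescaling, 1 without the libraries numbered 4, 1 without FMT-DSS 2 and FMT-DSS 4, 1 without FMT-CON 1 and FMT-SP 3, and 1 to 5 with each library left out. The 7 members had at least 4.47 FPKM in every library.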
